A study of Mus musculus with 48 samples.

Results

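H3K27ac, acetylation of lysine 27 of histone H3, was profiled by ChIP-seq in neuronal nuclei of the mouse hippocampal CA region with and without Setd1b. The 7 H3K27ac libraries, 4 labelled cKO and 3 labelled control, were taken by their labels from the 48 libraries of the series, and peaks on autosomes 1 to 19 were compared between the genotypes. All animals were adult C57BL/6J mice of 4 to 6 months. The cKO group carried the genotype Setd1b cKO, a conditional knockout, and the other group was labelled Control; the driver of the knockout and the deleted part of the gene are not given in the labels. Nuclei had been fixed and sorted by FACS before immunoprecipitation with the antibody Abcam ab4729. Whether a library came from a single animal or a pool is not stated, so the spread between libraries may be partly technical. From the same series, 8 H3K4me3, 8 H3K4me1 and 7 H3K9ac libraries of the same sorted nuclei and 6 neuron RNA libraries are used below to describe the H3K27ac regions.

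SETD1B is a methyltransferase of lysine 4 of histone H3 and works in a complex whose CXXC1 subunit binds unmethylated CG dinucleotides. Trimethylation of that lysine, H3K4me3, marks active promoters, and monomethylation, H3K4me1, marks enhancers and the flanks of promoters. H3K27ac is written by the acetyltransferases p300 and CBP and is found at active promoters and active enhancers. H3K27ac is thus not the product of SETD1B, and the comparison asks how this second mark of activity differs where the methyltransferase was removed.

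The ChIP libraries held between 37.0 and 41.6 M (mega) filtered tags. Each genotype had a single input library, of 31.3 M tags for cKO and 28.8 M for control, so that a difference between the inputs cannot be told apart from the genotype. The library Control 1 stood apart from the other 6: 20.8% of the regions in which it had a peak were found in no other library, against 4.64% to 10.3% in the others. Results below are therefore also given without it where that matters. On the Y chromosome, Control 4 had 0 peaks, whereas the other libraries had between 8 and 35, and the part of this difference in the autosomal results was not tested. Setd1b transcripts in neuron RNA were at 60.2, 62.0 and 71.6 CPM in the cKO libraries and 65.5, 50.2 and 47.8 CPM in the controls. CPM are counts per M of a library total that was adjusted by TMM normalization. The Setd1b values are counts over the whole gene, which do not check the deletion of a part of it.

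The start sites of neuronal marker genes carried H3K27ac in every library: all 7 neuron markers with a start site in the reference table (Rbfox3, Syt1, Slc17a7, Neurod2, Neurod6, Nrgn and Tubb3) had a peak within 1 kb in 7 of 7 libraries. No library had a peak at the start sites of the microglial genes Cx3cr1 and Aif1, the oligodendrocyte genes Mag and Olig2, the endothelial genes Cldn5 and Flt1 and the astrocyte genes Aldh1l1 and Gja1. With the remaining listed gene of each class, Mog and Kdr, peaks summed to 0 bp in cKO and 0 to 193 bp in controls for oligodendrocytes and to 0 to 879 bp and 532 to 1085 bp for endothelium. Summed peak lengths of some marker lists of other cell classes differed between the genotypes. Summed over the 5 inhibitory neuron markers (Gad1, Gad2, Slc32a1, Pvalb and Sst, the last without a region), H3K27ac peaks in the regions at start sites covered 3204 to 4548 bp in the cKO libraries and 5835 to 9185 bp in the controls. For the 3 dentate granule cell markers (Prox1, C1ql2 and Dsp) the sums were 6514 to 9159 bp and 10853 to 11983 bp, and for the astrocyte list 608 to 1397 bp and 1098 to 2159 bp, where 2 of 4 genes had a region and Aldh1l1 and Gja1 were at 0. The sums of the 7 neuron markers ran the other way, from 86810 to 89895 bp in cKO and from 78362 to 85146 bp in the controls. In these sums the groups did not overlap for the neuron, inhibitory and dentate lists and overlapped for the astrocyte list. Single genes carried the separation. Of the neuron, inhibitory and dentate genes with a region, only Neurod6, Gad1, C1ql2 and Dsp had covered lengths without overlap. At the other genes of these lists the groups overlapped, so the sums do not describe a class as a whole. In sorted nuclei, fewer nuclei of a type and less acetylation per nucleus cannot be told apart, and the part of these markers in the results that follow was not tested.

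No difference in the total extent of neuronal H3K27ac was detectable between the genotypes with 7 libraries. Peaks numbered 150573, 160136, 148690 and 159540 in cKO 1 to cKO 4 and 195426, 144741 and 167190 in Control 1, Control 3 and Control 4. The covered length was 115 Mb ± 9.10 (SD, n = 4) in cKO and 112 Mb ± 10.3 (SD, n = 3) in control libraries, and the groups overlapped in both measures. The widest peaks differed most: the 99th percentile of peak width was 4546, 5220, 4786 and 4850 bp in the cKO libraries and 3547, 4356 and 4534 bp in the controls, so that every cKO library lay above every control library. The difference was 0.23 on the log2 scale, with an exact permutation p of 0.0286, the smallest that 4 libraries against 3 can give, and a Benjamini-Hochberg adjusted p of 0.257 over the 9 library measures. None of the 9 measures passed the adjusted threshold of 0.05, which this family could not reach with a single small p. Without Control 1 the difference in the 99th percentile was 0.12 and that in peak number moved from -0.12 to -0.01. Within sequencing lane 4 (read from the file names, 2 libraries a genotype) the 99th percentile differed by 0.31, and within lane 5 (2 cKO libraries and 1 control) by 0.09.

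**Figure D1:**
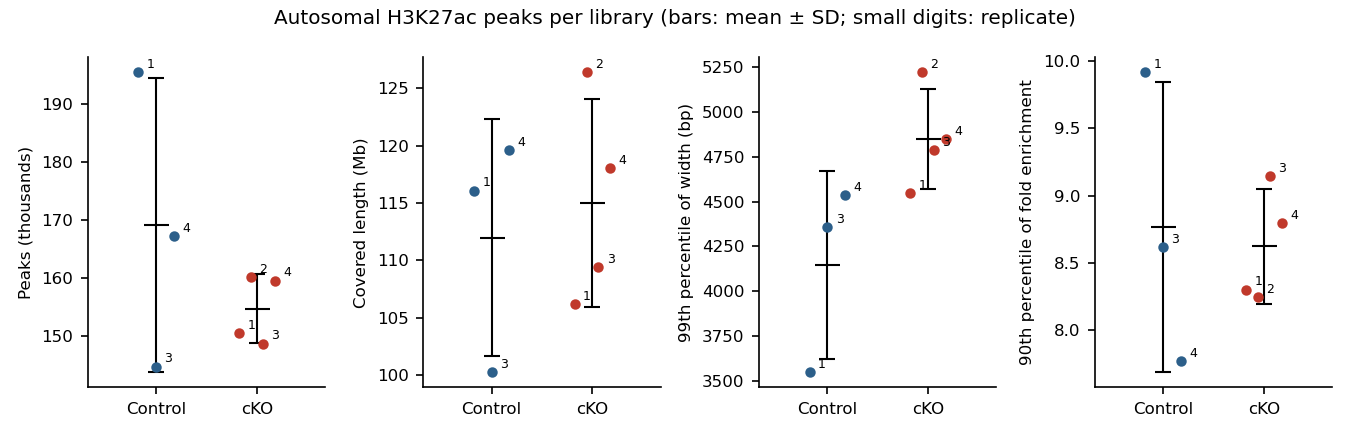
Each point is 1 library (small digits give the replicate) and bars show the mean ± SD of 3 control and 4 cKO libraries for the number of peaks (in units of 1000), the covered length (Mb), the 99th percentile of peak width (bp) and the 90th percentile of fold enrichment. Control 1 has the most peaks, 195426, and the lowest 99th percentile of width, 3547 bp; axes do not start at 0.

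Peaks of all libraries were merged where they overlapped, which gave 215698 regions. Of these, 56315 (26.1%) had a peak in all 7 libraries and 75242 (34.9%) in a single library. Regions with a peak in 4 of 4 cKO libraries and 0 of 3 controls numbered 1101, and regions with a peak in 0 of 4 and 3 of 3 numbered 1492. The median width of these sets was 587 bp for cKO and 476 bp for control, against 433 bp over all regions and 1618 bp for regions of all 7 libraries. Their median highest fold enrichment over input was 4.27 and 4.15, against 4.04 and 7.49. H3K4me1 without H3K4me3 in the controls was found at 638 of the 1101 cKO regions and 969 of the 1492 control regions, beside 53.6% of all regions. H3K4me3-marked regions made up 45 of the former and 245 of the latter, beside 16.2% of all regions. All regions include those of a single library, which these sets cannot hold. Of the 111693 regions with a peak in at least 3 libraries, 29347 were H3K4me3-marked and 68188 carried H3K4me1 without H3K4me3.

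**Figure D2:**
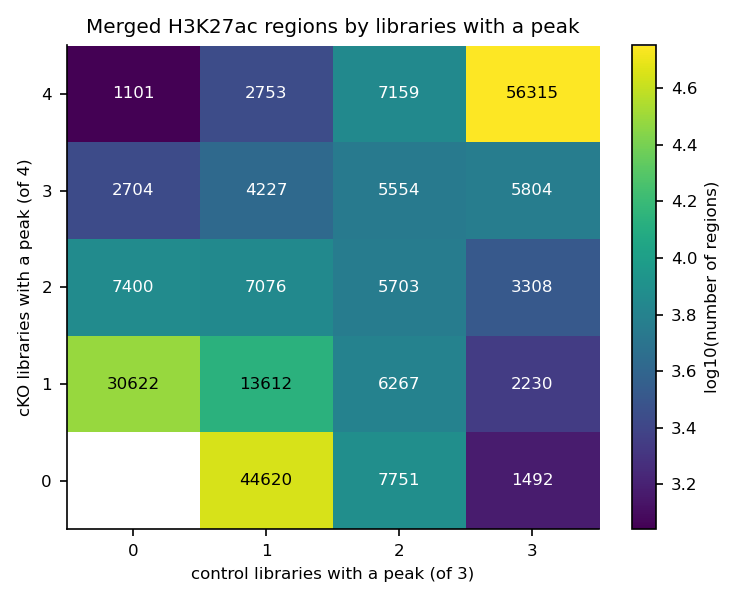
Number of merged regions by how many of 3 control libraries (x axis) and 4 cKO libraries (y axis) had a peak, with colour giving log10 of the number. The 56315 regions shared by all libraries and the 30622 and 44620 regions of a single cKO or control library are the most frequent patterns, and the opposite corners hold 1101 and 1492 regions.

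Covered length per region was tested with limma on log2(length + 100 bp) over the 111693 regions with a peak in at least 3 libraries. At an adjusted p under 0.05, 1547 regions (1.39%) were shorter in cKO and 1367 (1.22%) longer, together 2.61%. These calls mostly restate presence, since 1480 of the shorter ones had no peak in any cKO library and 1090 of the longer ones none in any control. The longer region ranked first lay within Gpm6a, which encodes a neuronal membrane glycoprotein, at chr8:54805691-54807800. Its peaks covered 1736, 1909, 1742 and 1657 bp in the cKO libraries and 0 bp in each control. On the other side, chr6:34874151-34875931 at Tmem140 and Cyren covered 0 bp in each cKO library and 1363, 912 and 1501 bp in the controls. A region overlapping Btbd3 (chr2:138283298-138284725) and another overlapping Ap5s1 (chr2:131212496-131213855), both H3K4me3-marked, followed the same pattern, with 978 to 1197 bp and 784 to 1360 bp in the controls and 0 bp in cKO. With an offset of 1000 bp in place of 100 bp, 486 regions were called, 150 shorter and 336 longer. Leaving out a control library leaves 7 to 17 shorter calls, because a region without peaks in cKO then has 2 libraries and is no longer tested.

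Where all 7 libraries had a peak, few regions differed in length: 79 of 56315 were called (0.14%), 10 shorter (0.0178%) and 69 longer (0.123%), or 45 shorter and 128 longer with each library centred on its median. In Ptcd1, a mitochondrial RNA-binding protein gene, the region at chr5:145163872-145165814 covered 834, 775, 753 and 686 bp in cKO and 1746, 1910 and 1712 bp in the controls, a log2 difference of -1.13 (SE 0.11, limma adjusted p = 0.0384). A region over Tmem115 and Cyb561d2 (chr9:107534011-107539086) covered 1163 to 1854 bp in cKO and 4444 to 4589 bp in the controls, a log2 difference of -1.67. Among the longer regions, 1 within Nsg2, a gene for a neuronal endosomal protein, at chr11:32005072-32007088 covered 1290, 1471, 1416 and 1836 bp in cKO and 255, 231 and 266 bp in the controls, a log2 difference of 2.18 (SE 0.14, limma adjusted p = 0.0253). Both genotypes were separated without overlap in these 3 regions. The count of calls was 0 with the lane as a term in the fit. It was 0 without cKO 1, cKO 2, cKO 3, cKO 4 or Control 3, 34 without Control 1 and 160 without Control 4.

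The heights of the peaks gave different counts by the column used. The highest -log10 p of a region, centred per library, differed in 0 of 56315 regions by limma at an adjusted p under 0.05, with 8022 regions (14.2%) at an unadjusted p under 0.05; its length-weighted mean called 72. The highest fold enrichment differed in 707 (1.26%), 361 lower (0.641%) and 346 higher (0.614%) in cKO, or 306 and 157 without centring. The highest pileup, the number of fragments stacked at the summit, differed in 131 regions (0.233%), 76 lower (0.135%) and 55 higher (0.0977%), or 62 and 20 per M tags without centring. Fold enrichment contains the input and pileup does not. In the 361 regions called lower by fold enrichment, the median log2 difference was -0.75 in fold enrichment and -0.34 in pileup, while the local background that the columns imply was 0.57 higher in cKO, against 0.12 over all common regions. In the 346 called higher, the background was 0.36 lower in cKO (log2 difference -0.36). For the 131 pileup calls the background difference was 0.12 in both directions, as over all regions. The background was not scaled to the tags of the input, 31.3 M for cKO and 28.8 M for control. Its differences are therefore to be read against 0.12 rather than 0. The share of the input in the fold enrichment calls cannot be told apart from the genotype, and the account of peak height below therefore rests on pileup. Peak presence and covered length, also used below, come from peaks called against the same inputs. They share this limit. Pileup calls numbered 1, 4, 3 and 4 without cKO 1, cKO 2, cKO 3 and cKO 4, and 6, 31 and 2 without Control 1, Control 3 and Control 4, although all 131 regions kept their direction in each of these 7 fits. The pileup calls below are given with that limit, which holds for every gene named from them.

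Relative to the rest of the library, H3K27ac pileup in promoter-marked regions was below the control level in every cKO library, with an adjusted p that missed 0.05. Of the regions with a peak in all 7 libraries, 24054 were H3K4me3-marked (a peak in at least 3 of 4 control libraries), 30867 carried H3K4me1 without H3K4me3 and 1394 neither. In H3K4me3-marked regions the mean centred log2 pileup was 0.52, 0.59, 0.62 and 0.58 in cKO 1 to cKO 4 and 0.76, 0.65 and 0.63 in the controls, a difference of -0.10 between the means. Every cKO library lay below every control library there. In H3K4me1-marked regions the corresponding values were -0.17, -0.17, -0.17 and -0.16 in cKO and -0.20, -0.16 and -0.20 in the controls, and the groups overlapped. The distance between both classes within a library was 0.74 ± 0.04 (SD, n = 4) in cKO and 0.86 ± 0.08 (SD, n = 3) in the controls, a difference of -0.12 with an exact permutation p of 0.0286, the smallest possible here, and an adjusted p of 0.0612 over the 15 class values compared. It was -0.07 without Control 1, -0.17 within lane 4 and -0.06 within lane 5. Over single regions, the log2 pileup difference had a median of -0.12 in H3K4me3-marked regions, with 73.2% of them below 0. In H3K4me1-marked regions the median was 0.02, with 46.7% below 0. The share below 0 over all common regions was 57.9%. Pileup calls fell on both sides of this division, with 49 lower (0.204%) and 7 higher (0.0291%) among H3K4me3-marked regions and 27 lower (0.0875%) and 44 higher (0.143%) among those with H3K4me1 only, against 0.135% and 0.0977% of all common regions. Covered length followed the same order, with a median log2 difference over tested regions of -0.03, 0.12 and 0.28 in the H3K4me3, H3K4me1 and unmarked classes; the exact permutation p for the length contrast between the first pair of classes was 0.114.

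**Figure D3:**
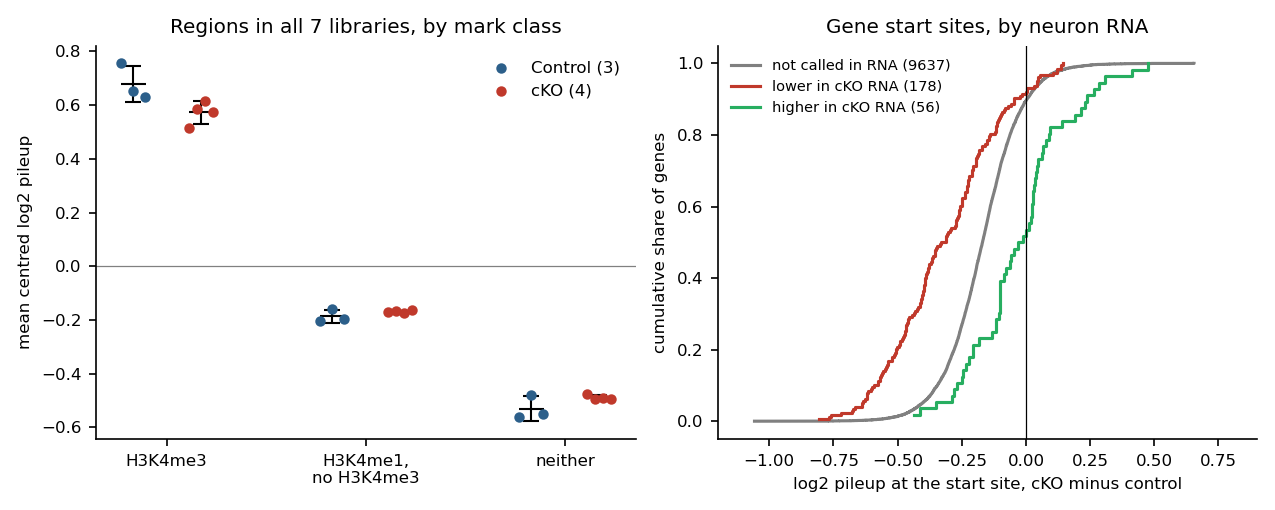
Left: mean centred log2 pileup of H3K27ac over the regions of each mark class, 1 point per library, with bars for the mean ± SD of 3 control and 4 cKO libraries. Right: cumulative share of gene start sites by log2 pileup difference (cKO minus control) for genes lower (178), higher (56) or not called in neuron RNA; the curve of the lower genes lies to the left, with a median of -0.32.

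Regions where H3K4me3 itself had shortened were next examined. Of 43584 H3K4me3 regions, 4047 were shorter in cKO by limma (9.29%) and 632 longer (1.45%). H3K27ac regions common to all 7 libraries overlapped the shorter set in 3864 cases, of which 85.8% had a pileup difference below 0. The share was 57.9% over all common regions. The median difference of the 3864 regions was -0.17, against -0.04 over all common regions. Mean centred log2 pileup in these was 0.80, 0.89, 0.95 and 0.89 in the cKO libraries and 1.13, 1.03 and 0.99 in the controls, without overlap, and the difference was -0.17, or -0.13 without Control 1. At H3K4me3 regions that were tested and not called, the median was -0.09, and at those that were longer it was 0.03 over 218 regions. Gene start sites in general were close to the shorter set. Of the 12288 genes with a common region there, 85.9% were below 0, with a median of -0.16. By pileup, 20 of the 3864 regions fell (0.518%) and 1 rose, against 0.135% and 0.0977% of all common regions. H3K4me3 was lost altogether (a peak in 4 of 4 controls and 0 of 4 cKO libraries) over 1189 H3K27ac regions, and of the 255 of them that kept H3K27ac peaks in all 7 libraries, 4 fell (1.57%) and 0 rose by pileup. Of the 618 tested for length, 55 were shorter (8.90%) and 3 longer, against 1.39% and 1.22% of all tested regions. Length calls mostly restate presence, since 1480 of the 1547 shorter calls over all tested regions had no peak in any cKO library. If the H3K4me3 peaks were called against the same inputs, both marks share that limit.

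At gene start sites H3K27ac pileup was mostly below the control level. Of 12288 genes with a start site within 1 kb of a common region, 85.9% had a pileup difference below 0. Their median was -0.16, while over all common regions the share below 0 was 57.9% and the median -0.04. By pileup, 25 genes (0.203%) were called lower and 1 (0.00814%) higher. The single higher gene was Gm39220, a predicted gene. By covered length, 48 of 13529 start sites were shorter (0.355%) and 12 longer (0.0887%), and these were narrow regions. At Spns2, a sphingosine-1-phosphate transporter gene, peaks covered 349, 395 and 378 bp in the controls and 0 bp in each cKO library, and at Cdc6, a DNA replication licensing gene, 227, 338, 187 and 217 bp in cKO and 0 bp in each control. Both calls restate presence, because these regions entered the test through the peaks of a single genotype. Neuron RNA had 393 gene IDs lower (2%) and 146 higher (0.744%) in cKO at an edgeR adjusted p under 0.05. Of the 60 genes called by length, 29 were tested in RNA and 3 were called there; RNA of Spns2 and Cdc6 did not pass the test. Of the genes lower in RNA, 258 had a start site in the reference table and 178 of these a region common to all libraries, and their median log2 pileup difference was -0.32. It was -0.17 over the 9871 genes tested in RNA that had such a region and -0.02 over the 56 genes higher in RNA. By pileup 8 of the 178 fell (4.49%) and 0 rose, against 0.213% and 0 of the 9871; of the 56 genes higher in RNA, 0 were called either way. Without Control 1 the mean difference was -0.27 for the genes lower in RNA, -0.11 for all genes tested and 0.01 for the genes higher. The median for all genes did not depend on RNA level: it was -0.16, -0.17 and -0.17 in the groups of low, middle and high RNA.

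The 8 genes that fell both in RNA and in start-site pileup were Lrrc10b, Serpina3n, H2-D1, Fxyd1, Stc2, Klk8, Car4 and Marveld1. Their promoters, from 250 bases before to 50 after the start site, did not share a base composition: they held between 3 (Serpina3n) and 34 (Lrrc10b) CG dinucleotides, against a median of 7 over the 31396 promoters of the table, of which 94.8% held at least 1. Because the complex of SETD1B binds CG dinucleotides, the sequences of Lrrc10b, Klk8 and Serpina3n are shown with each CG in capitals (a CG reads the same on both strands), together with that of Oprd1, the start site with the largest pileup difference. They are from RefSeq on GRCm38.p6, 5′ to 3′ on the strand of the gene, at chr19:10457398-10457697 (minus), chr7:43797327-43797626 (plus), chr12:104406458-104406757 (plus) and chr4:132144437-132144736 (minus).
Lrrc10b: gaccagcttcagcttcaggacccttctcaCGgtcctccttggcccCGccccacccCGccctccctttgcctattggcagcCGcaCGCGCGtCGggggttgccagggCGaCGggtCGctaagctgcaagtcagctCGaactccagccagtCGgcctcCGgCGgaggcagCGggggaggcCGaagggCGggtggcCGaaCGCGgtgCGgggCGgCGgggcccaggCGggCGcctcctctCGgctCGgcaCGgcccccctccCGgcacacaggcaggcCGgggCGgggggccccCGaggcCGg
Klk8: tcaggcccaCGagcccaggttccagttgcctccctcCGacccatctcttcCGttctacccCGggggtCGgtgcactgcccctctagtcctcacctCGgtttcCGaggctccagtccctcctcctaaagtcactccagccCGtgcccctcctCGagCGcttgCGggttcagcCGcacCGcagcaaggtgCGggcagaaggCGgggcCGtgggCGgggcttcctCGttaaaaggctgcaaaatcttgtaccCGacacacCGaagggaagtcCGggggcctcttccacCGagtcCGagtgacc
Serpina3n: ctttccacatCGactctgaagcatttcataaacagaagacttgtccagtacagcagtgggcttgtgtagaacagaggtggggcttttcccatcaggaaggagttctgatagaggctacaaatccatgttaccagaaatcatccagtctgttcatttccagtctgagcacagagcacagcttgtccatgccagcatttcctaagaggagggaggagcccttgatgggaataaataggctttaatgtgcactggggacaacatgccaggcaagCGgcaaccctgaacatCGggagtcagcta
Oprd1: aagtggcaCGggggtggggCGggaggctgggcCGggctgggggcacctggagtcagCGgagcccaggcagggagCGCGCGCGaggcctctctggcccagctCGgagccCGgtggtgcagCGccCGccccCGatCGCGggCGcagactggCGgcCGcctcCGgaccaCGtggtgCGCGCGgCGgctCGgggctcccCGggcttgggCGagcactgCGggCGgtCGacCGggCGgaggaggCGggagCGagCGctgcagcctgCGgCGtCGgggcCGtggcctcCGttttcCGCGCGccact
Lrrc10b held 34 CG, more than 92.0% of promoters, Klk8 23, Serpina3n 3 and Oprd1 43. The matches are a description of these windows and say nothing of binding.

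Lrrc10b, a gene for a leucine-rich repeat protein, combined the largest of these RNA changes with a lower promoter peak. Its highest pileup per M tags was 0.979, 1.06, 1.11 and 1.02 in the cKO libraries and 2.41, 1.46 and 1.84 in the controls (region chr19:10454193-10461472). All cKO libraries were below all controls, and the log2 difference was -0.81 (SE 0.14, limma adjusted p = 0.0238), ranging from -0.91 to -0.73 with 1 library left out. Its covered length was 6137 bp in cKO and 6937 bp in controls on average, a log2 difference of -0.18 (limma adjusted p = 0.638). RNA was 3.46 ± 0.26 CPM (SD, n = 3) in cKO and 20.3 ± 3.33 CPM (SD, n = 3) in controls. Of the gene and 1 kb either side, H3K4me3 covered 1497 to 2000 bp in cKO and 3779 to 3846 bp in controls, and H3K9ac, another acetylation mark of active promoters, 1410 to 1563 bp and 3131 to 3592 bp.

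Serpina3n, which encodes a secreted serine protease inhibitor, showed the same order. Pileup per M tags was 1.005, 1.105, 1.16 and 1.29 in cKO and 2.43, 1.59 and 1.96 in controls (chr12:104404990-104407863). The log2 difference was -0.76 (SE 0.14, limma adjusted p = 0.0315). The region also lay within 1 kb of the start site of the predicted gene Gm40561. RNA was 11.96 ± 0.67 CPM (SD, n = 3) in cKO against 42.9 ± 2.97 CPM (SD, n = 3) in controls. H2-D1, a classical class I histocompatibility gene that shares sequence with its neighbours of the same family, so that reads may be split among them, had 0.452, 0.456, 0.404 and 0.511 per M tags in cKO and 0.838, 0.680 and 0.868 in controls (chr17:35262946-35263790). Klk8, the gene of neuropsin, a serine protease of hippocampal neurons, had 0.603, 0.552, 0.732 and 0.699 in cKO and 1.19, 0.982 and 0.969 in controls (chr7:43796422-43798864), with a log2 difference of -0.67 (limma adjusted p = 0.0465). Neither gene's groups overlapped. Car4, a membrane-bound carbonic anhydrase, Stc2, a stanniocalcin hormone gene, Fxyd1, a regulator of the sodium pump, and Marveld1 had log2 differences between -0.72 and -0.64. The last 5 genes of the 8 (Fxyd1, Stc2, Klk8, Car4 and Marveld1) were named after their values were seen. The regions of Klk8 and Fxyd1 also overlap their neighbours Klk9 and Fxyd7. Over the 8 genes and the 7 fits with 1 library left out, the limma adjusted p lay between 0.0403 and 0.181, and it was under 0.05 only for Lrrc10b and Serpina3n without Control 3; every difference stayed below 0. Per M tags without centring, the adjusted p of Klk8, Stc2, Car4 and Marveld1 was between 0.0635 and 0.0984, and the other 4 stayed under 0.05.

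Start sites with called pileup did not all differ in RNA. Oprd1, the gene of the delta opioid receptor, had 0.402, 0.360, 0.479 and 0.377 per M tags in cKO and 1.16, 0.680 and 0.791 in controls (chr4:132143981-132144531), a log2 difference of -1.06 (SE 0.15, limma adjusted p = 0.00867). Its RNA was 14.2 ± 3.09 CPM (SD, n = 3) in cKO and 15.1 ± 2.17 CPM (SD, n = 3) in controls. Fuca1, the gene of a lysosomal fucosidase, fell by 0.75 in log2 pileup with an RNA log2 difference of -0.06. Tpbgl and Fndc1 fell by 0.75 each, with RNA log2 differences of -0.34 and -0.27 that did not pass the edgeR test. Of the 26 genes called by pileup, 21 were tested in RNA, and all 21 were called lower by pileup. Of these, 8 were called in RNA, all 8 lower. RNA calls in general leaned the same way, with 393 gene IDs lower and 146 higher.

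**Figure D4:**
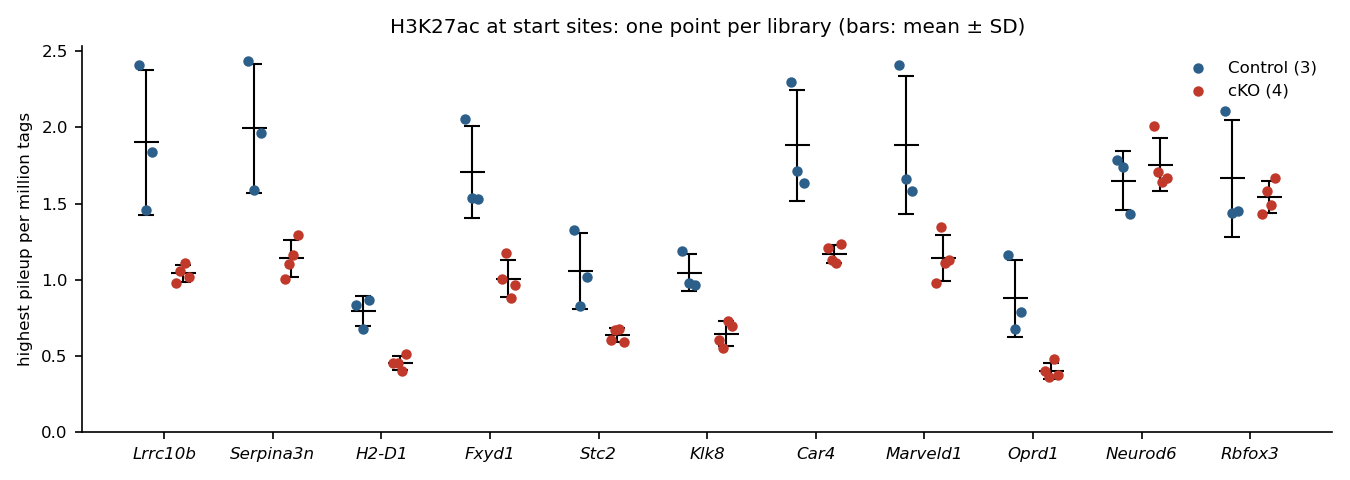
Highest H3K27ac pileup per M tags at the start-site region of 11 genes, 1 point per library, with bars for the mean ± SD of 3 control and 4 cKO libraries. The groups do not overlap for the first 9 genes, called lower in cKO, and overlap for Neurod6 and Rbfox3; Control 1 is the highest point at most of them.

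Neurod6 and Kctd4, lower in RNA, did not have fewer bases under H3K27ac in cKO. Neurod6, a transcription factor of pyramidal neurons, was at 32.3 ± 1.67 CPM (SD, n = 3) in cKO RNA and 153 ± 22.1 CPM (SD, n = 3) in controls, yet its H3K27ac pileup was 2.01, 1.71, 1.64 and 1.67 per M tags in cKO and 1.78, 1.74 and 1.43 in controls, a log2 difference of 0.12 (limma adjusted p = 0.719). The region, which also overlaps Gm3279, covered 11807, 12252, 12243 and 12578 bp in cKO and 7874, 10239 and 10146 bp in controls, without overlap, a log2 difference of 0.38 (limma adjusted p = 0.338). Of the gene and 1 kb either side, a window of 5446 bp, H3K27ac covered every base in all cKO libraries and 3227 to 5446 bp in controls, so that the groups overlapped. H3K4me3 covered 2346 to 3224 bp of it in cKO and 5446 bp in each control, while H3K4me1 covered 3555 to 5446 bp and 516 to 816 bp. At Kctd4, a potassium channel tetramerisation domain gene, H3K27ac covered 6136, 6941, 7125 and 7303 bp of the gene and 1 kb either side in the cKO libraries and 1788, 4740 and 5292 bp in the controls, without overlap. Peak height did not differ there. Pileup per M tags was 1.76, 1.75, 1.72 and 2.26 in cKO and 1.89, 1.89 and 1.91 in controls. The widest region had a log2 pileup difference of 0.0016 (limma adjusted p = 0.997). A region in the Kctd4 span (chr14:75953788-75954461) had a peak in 4 of 4 cKO libraries and 0 of 3 controls and was called longer (limma adjusted p = 0.00995). That call restates presence, because the region entered the test through its cKO peaks alone. Kctd4 RNA went the other way from covered length, with 56.9 ± 13.3 CPM (SD, n = 3) in controls and 9.65 ± 0.67 CPM (SD, n = 3) in cKO. Its H3K4me3 covered 1797 to 2219 bp in cKO and 4214 to 4532 bp in controls.

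Trpa1, an ion channel gene of sensory neurons, was higher in RNA, and H3K27ac peaks were called there in cKO libraries alone. A region over its upper coordinate (chr1:14918604-14918983) had peaks of 185, 213, 271 and 363 bp in the cKO libraries and none in the controls. The length call there (limma adjusted p = 0.00443) restates this presence, because the region entered the test through its cKO peaks alone. Trpa1 RNA was 12.1 ± 1.18 CPM (SD, n = 3) in cKO and 1.52 ± 0.08 CPM (SD, n = 3) in controls. Npr1, the receptor of atrial natriuretic peptide, and Nptx2, a secreted pentraxin of excitatory synapses, were lower in RNA. Peaks at the Npr1 start site covered 0, 0, 273 and 0 bp in cKO and 1154, 702 and 283 bp in controls, with a limma adjusted p of 0.191, and its RNA log2 difference was -2.87. Of Nptx2 and 1 kb either side, H3K27ac covered 1400, 1367, 1217 and 1878 bp in cKO and 3481, 3155 and 3610 bp in controls, without overlap. The promoter region of Nptx2 (chr5:144545868-144548817) had a log2 difference of -1.12 in covered length (limma adjusted p = 0.0819), of -0.43 in pileup (limma adjusted p = 0.202) and of -0.61 in fold enrichment, which passed the test (limma adjusted p = 0.0499). The local background in this region was 0.31 higher in cKO on the log2 scale, against 0.12 over all common regions. The share of the input in that call cannot be told apart from the genotype. Among other genes with higher RNA, Sult5a1 and C1qtnf6 had log2 pileup differences of 0.24 and 0.01 at the start site, with overlapping groups. Over the whole Sult5a1 span the pileup per M tags was 1.41, 1.51, 1.46 and 1.37 in cKO and 1.35, 1.31 and 1.25 in controls, without overlap, and its widest region did not pass (limma adjusted p = 0.564). The widest region of Wnt10b, a secreted signalling protein gene, had a log2 pileup difference of -0.30 (limma adjusted p = 0.428). At Ogn and Folh1, both lower in RNA, H3K27ac peaks were found over the gene in 2 and 1 of the 7 libraries. Of Setd1b itself and 1 kb either side, H3K27ac covered 7312, 9160, 7798 and 8405 bp in cKO and 12625, 7315 and 8229 bp in controls, which overlapped.

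No start site of the plasticity genes, a list of 30, was called in H3K27ac. Of the 21 with a start site in the table, 20 had a common region, and 0 were called by pileup, covered length or fold enrichment, by limma. Nptx2, a member without a start site in the table, was called lower by fold enrichment but not by pileup or covered length, with the limit from the input given above. The median log2 pileup difference of the 20 was -0.20, with 19 of 20 below 0, against -0.16 and 85.9% for all genes. Dusp6, a phosphatase of the MAP kinase pathway, Nr4a1, an activity-induced nuclear receptor, and Bdnf, a neurotrophin, had differences of -0.42, -0.44 and -0.39, with groups that did not overlap and limma adjusted p values of 0.187, 0.162 and 0.187. The immediate early gene Fos had a pileup difference of -0.25 with overlapping groups and covered 528, 943, 1033 and 980 bp in cKO and 2097, 1449 and 1995 bp in controls, which did not overlap (limma adjusted p = 0.188). The glutamate receptor gene Gria2 had a pileup difference of 0.02. Of this list 2 genes, among all 30 tested, were lower in neuron RNA and 0 higher, against 2% and 0.744% of all gene IDs tested. C1ql2, a dentate granule cell gene that was also lower in RNA (log2 difference -0.76), had a log2 pileup difference of -0.60 (limma adjusted p = 0.0633).

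Some called regions lay near each other. Among the 131 regions called by pileup there were 37 neighbouring pairs within 1 Mb, and in 34 of them both calls had the same direction; the number expected without clustering was not computed. Outside chromosome 18, on which 7 of the 131 lie, 4 protein-coding genes held 3 or more called regions, namely Gpm6a (6), Chn1 (3), Dlgap1 (3) and Oxr1 (7); this rule was set after the values were seen, and the values that follow are a description. Along Gpm6a (chr8:54779434-55060878) 6 regions were called higher, and 15 of the 16 common regions had a difference above 0, with a median of 0.70, or 0.55 without Control 1. H3K27ac covered 96346, 111890, 105065 and 108644 bp of the gene in the cKO libraries and 12256, 46584 and 50935 bp in the controls, and 11 regions were present in all cKO libraries and no control. H3K9ac covered 13011 to 13458 bp of it in 3 cKO libraries and 7578 to 8867 bp in 4 controls, and H3K4me1 72543 to 83417 bp and 69074 to 84226 bp. H3K4me3 covered less in cKO, 4989 to 6266 bp against 8889 to 9929 bp, and RNA had a log2 difference of -0.75 that did not pass (edgeR adjusted p = 0.0872).

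Dlgap1, a scaffold gene of the postsynaptic density, had 3 called regions, all higher, and 63 of 86 common regions above 0; the calls lay 489, 569 and 575 kb from its lower coordinate (chr17:69969073-70821413). H3K27ac covered 286981 to 319239 bp of the gene in cKO and 178030 to 260536 bp in controls, and H3K9ac 63715 to 70979 bp and 33613 to 46120 bp. Chn1, the gene of a Rac GTPase-activating protein of neurons, also had 3 higher calls, with 11 of 14 regions above 0 and a covered length of 58674 to 65945 bp in cKO and 28630 to 43903 bp in controls (chr2:73610660-73775367). H3K4me3 covered less of both genes in cKO, without overlap of the groups. It covered 6160 to 9799 bp of Dlgap1 in cKO and 15447 to 17143 bp in controls. For Chn1 the ranges were 5001 to 6255 bp and 10479 to 10976 bp. RNA of Dlgap1 and Chn1 did not pass the test, with log2 differences of -0.14 and -0.24.

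Oxr1, a gene for protection against oxidative damage, was the reverse. Of its 11 common regions (chr15:41447482-41861051) 7 were called lower and 11 of 11 had a difference below 0, with a median of -0.70, or -0.75 without Control 1. H3K27ac covered 13235, 20218, 14144 and 20122 bp of the gene in cKO and 24306, 44049 and 54197 bp in controls, and 13 regions were present in all controls and no cKO library. H3K4me1 covered 13442 to 26640 bp in cKO and 61383 to 79007 bp in controls, H3K9ac 2358 to 2851 bp and 7020 to 8061 bp, and H3K4me3 4405 to 5735 bp and 7218 to 8384 bp. All 4 marks were lower there without overlap of the groups, and Oxr1 RNA fell by 0.66 on the log2 scale (edgeR adjusted p = 0.0401). The local background from the input differed by 0.13 in Gpm6a and 0.04 in Oxr1 on the log2 scale, beside 0.12 over all common regions.

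**Figure D5:**
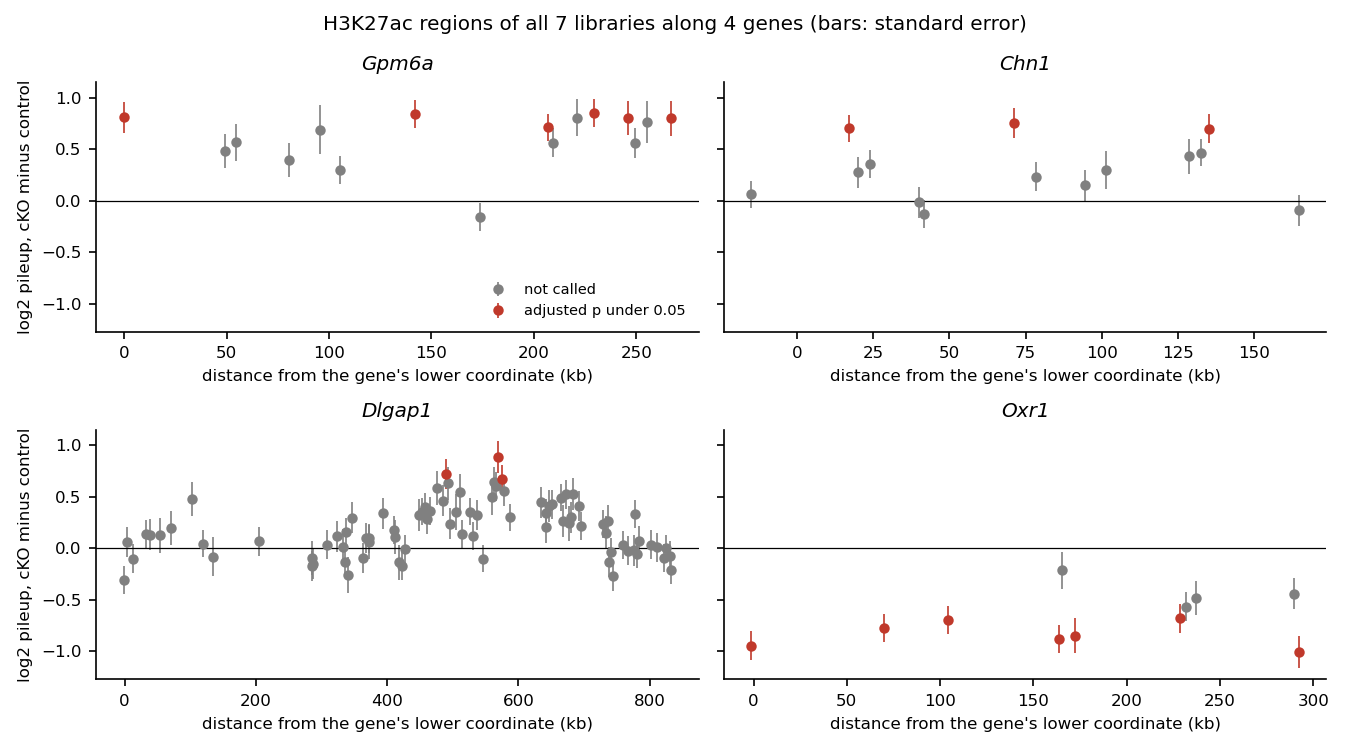
Log2 pileup difference (cKO minus control) of each H3K27ac region common to all 7 libraries along 4 genes, with bars for the standard error; the x axis is the distance in kb from the gene's lower coordinate, and red marks an adjusted p under 0.05. In Gpm6a 15 of 16 regions lie above 0, and in Oxr1 11 of 11 lie below.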

How the data were processed

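Peak lists of 7 neuronal H3K27ac libraries were analysed, with H3K4me3, H3K4me1 and H3K9ac lists and neuron RNA of the same series. Per the file headers, the authors called peaks in each library with MACS2 2.1.0.20140616 (H3K27ac) against 1 input per genotype at a q cutoff of 0.1; the submitters' processing notes name mm10 and GRCm38. The deposited columns hold -log10 p and q values, fold enrichment over the local background (a ratio with a pseudocount of 1), and the pileup signal at the summit, with the larger library scaled down to the smaller. The deposited RNA files hold raw counts per gene, 55.7 to 69.1 M a library; the aligner and counter are not given in the sources used here. CPM were computed here with edgeR, from library totals of the genes kept for testing and adjusted by TMM.

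Overlapping peaks of autosomes 1 to 19 were merged. Covered length was tested with limma 3.58.1 on log2(length + 100 bp) in regions with a peak in at least 3 libraries, and -log10 p, fold enrichment and pileup on log2 values centred on each library's median in regions of all 7; the centred values are relative and do not show a global change. RNA was tested with edgeR 4.0.16 (quasi-likelihood, TMM), with DESeq2 1.42.0 as an alternative. Threshold: Benjamini-Hochberg adjusted p under 0.05 over all features tested. Library values were compared by two-sided exact permutation over 35 assignments. Scripts were tested on simulated data. Fold enrichment, pileup, gene spans and the 4 loci were added after seeing the data. Bases covered in a gene count only what lies inside the gene or window, with peaks cut at its ends, a measure also chosen after seeing the data; by the whole length of the peaks that touch the window, the H3K27ac groups of Neurod6 did not overlap, and the other gene values printed kept their order of groups. Named regions were up to 3 a direction and named genes up to 10 a direction by adjusted p, plus the listed genes; regions on chromosome 18 were counted and not named. Start sites and promoters came from RefSeq (GRCm38.p6), which covered 16457 of 20665 autosomal coding genes; a start site was assigned to a region within 1 kb. The members and gene lists were chosen with earlier results of these data known. Same-numbered libraries did not pair: correlations of their deviations were -0.02, 0.02 and 0.10 for length, and 0.12 for Control 1 with cKO 2, the number its file carries.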

Additional observations from a re-analysis of the deposited data

Results flagged for a closer look

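Of 83 groups of 4 libraries examined for a value far from the others, 2 held such a value; chance gives about 1 in 20. The median fold enrichment of cKO 2 was 3.72, below the other cKO libraries at 4.08 to 4.11, with a gap of 0.917 of the group's range. The mean centred log2 fold enrichment in regions with neither H3K4 mark was -0.45 in cKO 1, above the other cKO libraries, with a gap of 0.831 of the range.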

How the results depend on the processing

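Alternatives that turned a library value: the 90th percentile of peak score differed by 0.08 on the log2 scale, but by -0.016 with peaks at -log10 q of at least 5, -0.059 with the same number of strongest peaks, -0.018 with peaks within 1 kb merged and -0.12 within lane 4. Covered length (0.04) was -0.0065 with 1 kb merging and -0.074 within lane 5. Within lane 5 the median and 90th percentile of fold enrichment (-0.03, -0.02) were 0.14 and 0.21, and within lane 4 the median score (0.02) was -0.11. Pairing by replicate number (replicate block), which the data did not bear out, gave -0.0071 for covered length, 0.0097 and 0.0029 for the median and 90th percentile of fold enrichment, 0.20 for the 99th percentile of width, 0 length calls, 95 pileup calls and -0.13 for the pileup contrast of H3K4me3 and H3K4me1 classes (smallest possible p = 0.25 by exact sign flips). Pairing Control 1 with cKO 2, as a file name has it, gave 0 length calls, 11 pileup calls and a contrast of -0.10. With at least 50% of the region overlapped by the mark, the contrast was -0.16 (exact permutation p = 0.0571). Length calls (2914) were 1341 at the stricter q, 1309 with 1 kb merging, 79 with a peak in every library and 486 with the larger offset; those in regions of all 7 libraries (79) were 0 with the lane and 173 centred. Score calls (0) were 72 by the length-weighted mean, 151 uncentred, 95 at the stricter q, 4 with the strongest peaks and 3 with 1 kb merging. Fold enrichment calls (707) were 463 uncentred. Pileup calls (131) were 82 per M tags uncentred, 38 with 1 kb merging, 75 with the lane and 88 at the stricter q, where 31 were lower and 57 higher. Regions of cKO alone (1101) were 533 at the stricter q, 409 with 1 kb merging and 1738 where a library had to cover 50% of the region; those of control alone (1492) were 556 and 717 under the first pair of these.

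With 1 library left out, the ranges were -0.038 to 0.089 for covered length, -0.093 to 0.14 and -0.028 to 0.20 for the median and 90th percentile of score, -0.089 to 0.040 and -0.10 to 0.074 for those of fold enrichment, -0.15 to -0.075 for the pileup contrast, 1115 to 4044 length calls, 0 to 160 in regions of all 7, 153 to 374 fold enrichment calls, 1 to 31 pileup calls, 1545 to 2277 regions of cKO alone and 1847 to 6426 of control alone. At genes higher in RNA the medians ranged from -0.0041 to 0.035 for length and -0.072 to 0.0014 for pileup. At genes lower in RNA, with each region counted once, the median pileup difference was -0.33 and stayed below 0 in every alternative run, from -0.37 to -0.27. Neuron RNA calls were 588 lower and 230 higher by DESeq2. Peak lists do not show signal under the caller's threshold, so an absent peak is not absent acetylation.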
